A study of Mus musculus with 18 samples.

Results

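The transcriptome of cultured mouse cortical astrocytes was profiled 3 days after brief stimulation of a designer receptor, hM3Dq. Of the 18 libraries of the series, the 6 taken at 3 days are described, and every gene that passed a count filter was tested. In 3 libraries the cells had been transfected with an hM3Dq plasmid, and in 3 with a plasmid for the red fluorescent protein mCherry. Both groups received 8 µM deschloroclozapine (DCZ), the synthetic ligand of the receptor, for 90 min, 7 days after transfection, and then stood for 3 days in medium without ligand. The mCherry cells carry no receptor but did receive the ligand, so ligand alone is shared by both groups, and no library of the 3-day set has the receptor without ligand. Cells were grown in serum-containing medium and passaged before confluence. The RNA is that of the whole culture, in which transfected and untransfected cells are mixed, and in such bulk samples fewer cells of a type and less RNA per cell cannot be told apart. The earlier libraries used for comparison are hM3Dq and EGFP (green fluorescent protein) cells, 3 of each, lysed at the end of the 90 min in ligand.

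hM3Dq is a muscarinic acetylcholine receptor changed so that it no longer answers to acetylcholine but to clozapine-like drugs. It couples to the Gq protein, which activates phospholipase C and releases calcium from internal stores. Calcium and the kinases downstream of it switch on immediate-early genes, such as the Fos, Egr and Nr4a transcription factors, within minutes and usually for a few hours. Astrocytes use Gq signalling to respond to neurotransmitters. After injury or inflammation they take on a reactive state with more cytokine signalling, complement and matrix genes.

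The libraries held 17.2 to 19.7 M estimated counts in hM3Dq cells and 16.6 to 18.5 M in mCherry cells. The library mCherry 3 stood apart from all the others. The first principal component of 11706 genes held 69.2% of the variance and separated this library, and the second, with 15.9%, separated the 3 hM3Dq libraries from mCherry 1 and 2. Log2 levels correlated at 0.9954 to 0.9961 among hM3Dq libraries, at 0.9949 between mCherry 1 and 2, and at 0.9662 to 0.967 between mCherry 3 and its group. The shift of mCherry 3 followed GC content and transcript length. Genes were put in 5 bins of equal size by either property. Against mCherry 1 and 2, its median log2 difference was 0.38 in the bin with the lowest GC content and -0.45 in the bin with the highest, and it was -0.49 in the bin of the shortest transcripts and 0.27 in that of the longest. The hM3Dq libraries differed from mCherry 1 and 2 by medians between -0.05 and 0.07 over the same bins. Results are therefore given both with all 6 libraries and without mCherry 3. Levels are in CPM, the count of a gene per 1 M counts of its library, scaled over the 6 libraries.

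**Figure D1:**
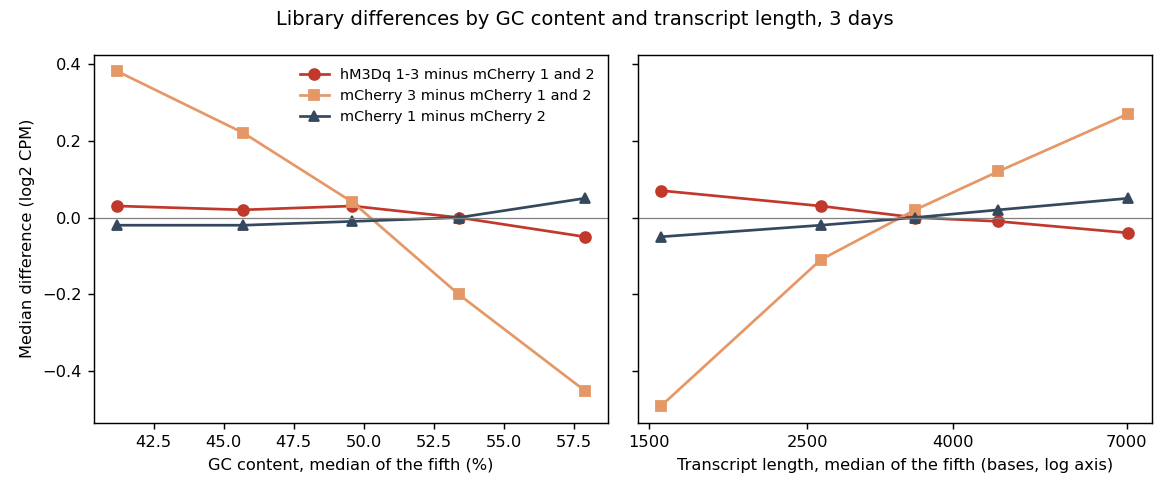
Median log2 CPM difference in 5 bins of genes by GC content (left, %) and transcript length (right, bases, log axis), for hM3Dq minus mCherry 1 and 2, mCherry 3 minus mCherry 1 and 2, and mCherry 1 minus mCherry 2. Only the line of mCherry 3 is steep, between 0.38 and -0.45 over GC content, while the hM3Dq line stays between -0.05 and 0.07.

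With all 6 libraries, edgeR's quasi-likelihood test called none of 12807 genes (0%) at an adjusted p below 0.05. An unadjusted p below 0.05 was reached by 1540 of them, 583 higher (4.55%) and 957 lower (7.47%) with hM3Dq. DESeq2 called 156 genes on the same libraries, and limma-voom with library quality weights called 1316. Without mCherry 3 the edgeR test called 1257 of 12929 genes (9.72%), of which 536 (4.15%) were higher and 721 (5.58%) lower with hM3Dq. The changes were small. The median size of a called change was 0.32 on the log2 scale, and 45 called genes differed by 2-fold or more, 16 higher and 29 lower. An offset for GC content and transcript length in each library, applied to all 6, gave 396 calls (3.09%), with 222 (1.73%) higher and 174 (1.36%) lower, and 364 of these were among the 1257. The count without mCherry 3 rested also on mCherry 1. It was 250 when mCherry 1 was left out too, 1246 without mCherry 2, 788 without hM3Dq 1, 743 without hM3Dq 2 and 1587 without hM3Dq 3. In what follows, "rose", "fell" and "called" refer to the test without mCherry 3, and in the edgeR test of all 6 libraries without an offset none of these genes passed. On those 6 libraries DESeq2 called 152 of the 1257 and limma-voom 1106. Of the 1257 called genes, 852 had groups that did not overlap over all 6 libraries, 372 higher and 480 lower. Among all genes tested, 12.1% had such groups with hM3Dq higher and 13.0% with hM3Dq lower. In the other called genes mCherry 3 lay among or beyond the hM3Dq libraries. The calls were made on the other libraries, so for called genes only mCherry 3 adds information on overlap. The share over all genes is therefore not a like comparison for them. This holds also for each called gene or list described below as apart.

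**Figure D2:**
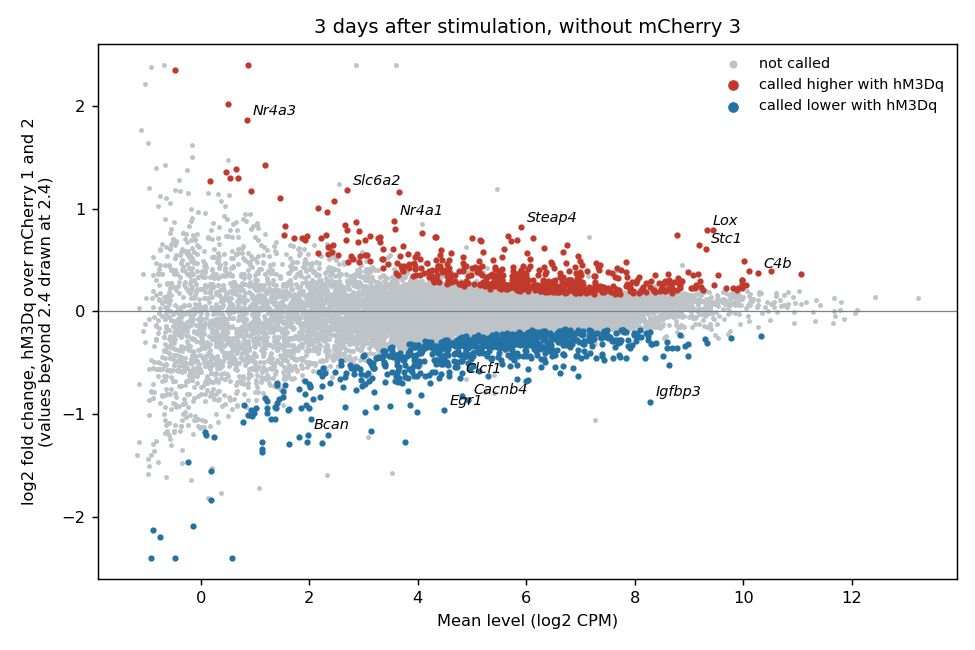
Log2 fold change of hM3Dq over mCherry 1 and 2 against mean log2 CPM for the 12929 genes tested without mCherry 3. Called genes are in red (536 higher) and blue (721 lower), and most of them lie within 1 log2 unit of 0.

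The immediate-early genes moved in opposite directions. Of 32 tested, 3 rose and 8 fell, with a list median of -0.01 against 0.01 over all genes. The 3 that rose were Nr4a1 (Entrez 15370) and Nr4a3 (18124), orphan nuclear receptors that act as transcription factors, and Fosl2, an AP-1 subunit. Nr4a1 had 13.6, 14.8 and 14.4 CPM in hM3Dq cells, against 6.91, 8.63 and 6.17 CPM in mCherry cells. All 3 hM3Dq libraries lay above all 3 mCherry libraries, and the log2 fold change was 0.88 ± 0.12 (SE) without mCherry 3 (adjusted p = 0.000843) and 0.98 ± 0.15 with it (adjusted p = 0.199). Nr4a3 stood at 2.25, 2.58 and 2.28 CPM in hM3Dq cells, against 0.804, 0.48 and 0.785 CPM in mCherry cells. This low-count gene had a log2 fold change of 1.86 ± 0.32 without mCherry 3 (adjusted p = 0.00274) and 1.76 ± 0.25 with it (adjusted p = 0.199). DESeq2 without mCherry 3 gave no adjusted p for Nr4a3. Nr4a2, the third member of the family, lay at 3.64 to 4.17 CPM in hM3Dq cells and 2.52 to 3.03 CPM in mCherry cells, apart in all libraries but not called (adjusted p = 0.0579 without mCherry 3).

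The promoters of Nr4a1 and Nr4a3 are shown because both genes were higher at 90 min and at 3 days, and because the Nr4a family is a textbook target of the cAMP response element (CRE). They are from RefSeq on GRCm38.p6, 250 bases before to 50 after the start, at chr15:101266596-101266895 and chr4:48045055-48045354, both on the plus strand. Capitals mark TGACG, the core of the CRE, on either strand (CGTCA on the other).
Nr4a1: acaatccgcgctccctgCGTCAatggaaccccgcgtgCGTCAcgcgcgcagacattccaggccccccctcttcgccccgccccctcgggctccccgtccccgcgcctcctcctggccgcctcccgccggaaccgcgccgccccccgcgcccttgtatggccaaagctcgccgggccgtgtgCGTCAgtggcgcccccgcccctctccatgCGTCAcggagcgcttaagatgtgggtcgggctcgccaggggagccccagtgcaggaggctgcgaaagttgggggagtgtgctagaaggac
Nr4a3: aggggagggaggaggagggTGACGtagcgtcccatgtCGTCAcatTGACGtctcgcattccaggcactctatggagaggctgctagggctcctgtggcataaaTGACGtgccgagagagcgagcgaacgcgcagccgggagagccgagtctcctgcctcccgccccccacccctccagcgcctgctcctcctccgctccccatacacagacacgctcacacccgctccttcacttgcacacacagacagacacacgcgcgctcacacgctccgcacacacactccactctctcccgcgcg
Each promoter held 4 matches. Of 32851 promoters of this length, 20.8% held at least 1 match and 0.113% held at least 4. Of the 26 genes called at both times, 17 had a promoter in the table and 9 of these held at least 1 match. These were 4 of 9 genes higher at both times, 3 of 6 higher at 90 min and lower at 3 days, and 2 of 2 lower at both. A gene counted if any of its promoters held a match, whereas the 20.8% is a share of single promoters. A match describes letters in this window and is not evidence of binding.

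The genes of the list that fell included 3 of the Egr zinc-finger transcription factors, the AP-1 subunit Fos, and Myc, Btg2 and Ier2. Egr3 (Entrez 13655) was listed at 0 counts in all 3 hM3Dq libraries and had 59, 66 and 91 counts in mCherry 1, 2 and 3. It was the one gene listed at 0 in every hM3Dq library with at least 15 counts in every mCherry library. Against a floor of 3 counts per library, its level was at least 24.8-fold lower with hM3Dq, with an adjusted p of 2.14e-05 without mCherry 3 and 0.126 with it. DESeq2 gave Egr3 no adjusted p without mCherry 3 and one of 1.63e-08 with it. Fos had 10.2, 11.3 and 10.5 CPM in hM3Dq cells, against 14.8, 16.3 and 13.1 CPM in mCherry cells. The groups of Fos did not overlap, and its log2 fold change was -0.54 ± 0.11 without mCherry 3 (adjusted p = 0.00556) and -0.47 ± 0.12 with it (adjusted p = 0.262). Egr2, at 3.79, 2.88 and 3.58 CPM in hM3Dq cells and 4.55, 7.8 and 6.84 CPM in mCherry cells, was also apart, with a log2 fold change of -0.83 ± 0.22 (adjusted p = 0.0281 without mCherry 3). Of the 8 genes of the list that fell, 5 were apart in all 6 libraries. Egr1 and Ier2 were not, and for both mCherry 3 lay below all hM3Dq libraries. Egr1 had 17, 16.9 and 15.1 CPM in hM3Dq cells, between 28.2 and 35.4 CPM in mCherry 1 and 2 and 8.52 CPM in mCherry 3. Its log2 fold change was -0.96 ± 0.10 without mCherry 3 (adjusted p = 0.000123) and -0.56 ± 0.43 with it (adjusted p = 0.563), so mCherry 3 alone decided the call. The number of the list that fell was 3 without hM3Dq 2 or mCherry 2 and 5 without hM3Dq 1 or mCherry 1. Calls of Egr2, Ier2, Myc and Btg2 were lost in this fit when 1 further library was left out. Without mCherry 2 all 4 were lost (adjusted p 0.0508 to 0.345), and without hM3Dq 2 likewise (0.0595 to 0.104). Ier2 and Myc were lost without mCherry 1 (0.16 to 0.196), and Btg2 and Myc without hM3Dq 1 (0.0921 to 0.107) and without hM3Dq 3 (0.0508 to 0.0713).

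**Figure D3:**
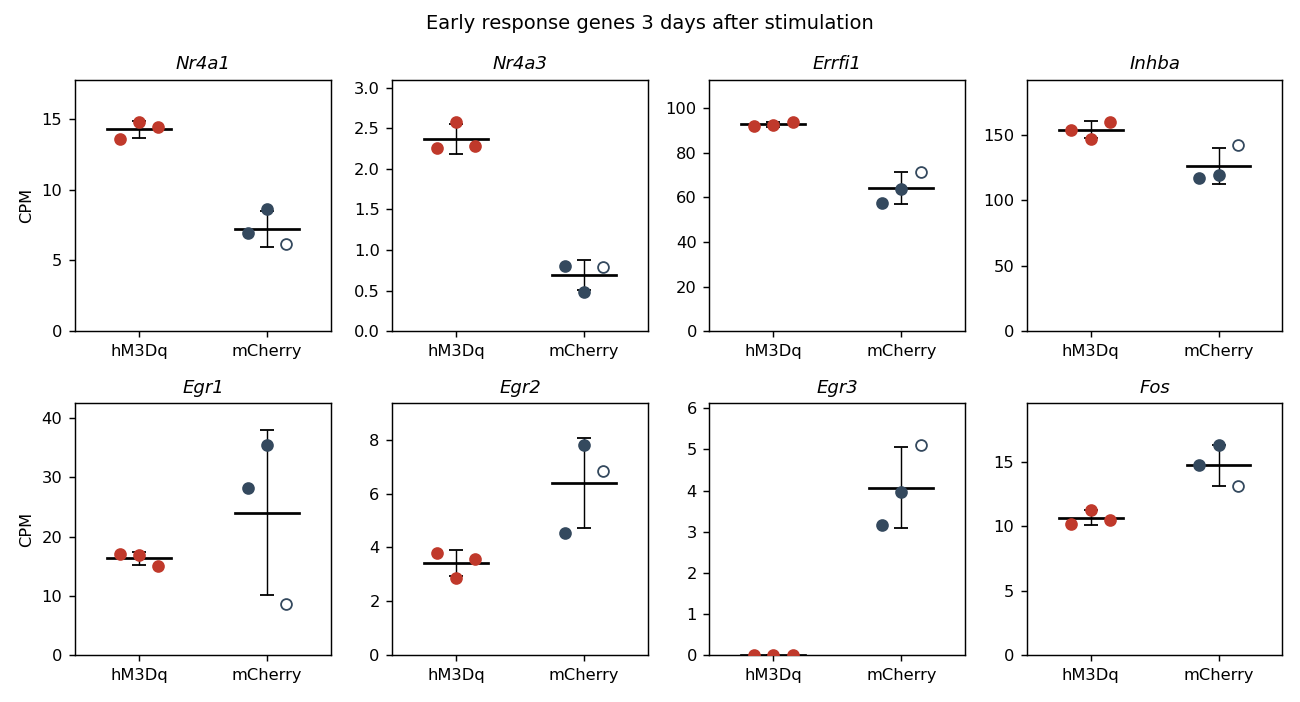
CPM of 8 early response genes in each 3-day library, hM3Dq left and mCherry right, with mCherry 3 as an open circle and the mean ± SD of all 3 libraries per group. Nr4a1, Nr4a3, Errfi1 and Inhba lie higher in every hM3Dq library, Egr2, Egr3 and Fos lie lower, and Egr1 is split by mCherry 3 at 8.52 CPM.

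At 90 min the picture was different for many of the same genes. In a model of the 12 hM3Dq and control libraries of both times, hM3Dq against EGFP at 90 min gave 163 called genes of 13391 (1.22%), 146 higher and 17 lower, including 20 of the 32 immediate-early genes, each higher. Egr3 averaged 17.8 ± 5.74 CPM in hM3Dq cells at 90 min and 1.82 ± 0.92 CPM in EGFP cells (SD, n = 3 each), scaled over all 18 libraries. Nr4a1 averaged 466 ± 33.8 CPM in hM3Dq cells and 117 ± 24.7 CPM in EGFP cells at that time. Tested against the 90-min effect, each against its own control, the 3-day effect differed in 53 genes (0.396%), 51 of them lower at 3 days (0.381%) and 2 higher (0.0149%). Without mCherry 3 it differed in 78 genes (0.575%), 73 lower (0.538%) and 5 higher (0.0369%). Egr2 differed by -3.92 on the log2 scale (adjusted p = 5.5e-05), Fos by -2.47 (adjusted p = 0.000117), Clcf1 by -2.43 (adjusted p = 3.55e-05) and Errfi1 by -1.64 (adjusted p = 0.00589). The difference was not called for Nr4a1 (-1.01, adjusted p = 0.0965), Nr4a3 (-1.56, adjusted p = 0.526) or Egr1 (-2.95, adjusted p = 0.108). Without mCherry 3 it was called for Egr1 (-3.35, adjusted p = 0.0146) but not for Nr4a1 (adjusted p = 0.066) or Nr4a3 (adjusted p = 0.686). The 2 genes whose effect was higher at 3 days were Nuak1, a kinase related to AMPK, with a difference of 0.64 (adjusted p = 0.0368), and Rhobtb2, with 0.90 (adjusted p = 0.0317). Nuak1 was lower at 90 min (log2 fold change -0.70, adjusted p = 0.000733) and not called at 3 days (-0.10, adjusted p = 0.29 without mCherry 3). Rhobtb2 had -0.50 at 90 min (adjusted p = 0.0567) and 0.35 at 3 days (adjusted p = 0.00973 without mCherry 3). No effect was called higher at 3 days when any 1 of the 3-day hM3Dq libraries was left out. The count of 53 was 28 to 170 when single libraries were left out. It was 170 without EGFP 1, and it was 28 without hM3Dq 1 of 90 min, 33 without hM3Dq 2 of 90 min, and 29 to 30 when a 3-day hM3Dq library was left out. The controls of the 2 times carry different fluorescent proteins, so time and control plasmid cannot be told apart in this difference.

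Of the genes called at 90 min and tested at 3 days, 26 were also called at 3 days without mCherry 3. They are 16.7% of the 156 genes called at 90 min and 2.07% of the 1257 called at 3 days, which itself holds 9.72% of the genes tested. The 2 comparisons contrast different libraries. The model behind the 90-min test also held the 3-day libraries, which entered its filter, scaling and estimate of the spread. Of the 26, 12 were higher at both times: Nr4a1, Nr4a3, Errfi1, Trib1, Ptx3, Fosl2, Inhba, F3, Hk2, Ahr, Medag and Sik1. Another 11 were higher at 90 min and lower at 3 days, namely Egr1, Egr2, Egr3, Fos, Clcf1, Myc, Ier2, Slc4a7, Dot1l, Btg2 and Baiap2. Smad9, Shroom2 and Fbxo32 were lower at both times, and no gene was lower at 90 min and higher at 3 days. Ptx3, a secreted pattern-recognition protein, had 70.9, 64.1 and 69.1 CPM in hM3Dq cells at 3 days, against 49.5, 51.0 and 41.6 CPM in mCherry cells. The log2 fold change of Ptx3 was 0.44 ± 0.06 at 3 days (adjusted p = 0.00107 without mCherry 3) and 2.05 at 90 min (adjusted p = 0.00179). Clcf1, a cytokine of the interleukin-6 family, had 22.2, 23.1 and 21.4 CPM in hM3Dq cells at 3 days, against 38.2, 31.5 and 32.2 CPM in mCherry cells. All hM3Dq libraries were lower, with a log2 fold change of -0.65 ± 0.09 (adjusted p = 0.0007), against 1.81 at 90 min (adjusted p = 3.03e-06). The other 130 genes called at 90 min were not called at 3 days, and the groups of all 6 libraries overlapped in 94 of them, with hM3Dq higher in 16 and lower in 20. Fosb, with a log2 fold change of 3.56 at 90 min, had 1.84 to 2.82 CPM in hM3Dq cells and 1.46 to 2.25 CPM in mCherry cells at 3 days, and Ptgs2, the inducible cyclooxygenase, with 3.95 at 90 min, had 8.8 to 9.6 CPM in hM3Dq cells and 7.5 to 13.5 CPM in mCherry cells. The groups overlapped for both genes. Arc, an early gene of synapses that was also higher at 90 min, had 0.256, 0.235 and 0.217 CPM in hM3Dq cells at 3 days, against 0.536, 0.839 and 0.448 CPM in mCherry cells, apart at a very low level but not called (adjusted p = 0.0806). Trib1 and Baiap2 lost their 3-day calls without mCherry 1 (adjusted p 0.128 to 0.135), and Trib1 and Rhobtb2 without mCherry 2 (0.0799 and 0.0565).

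**Figure D4:**
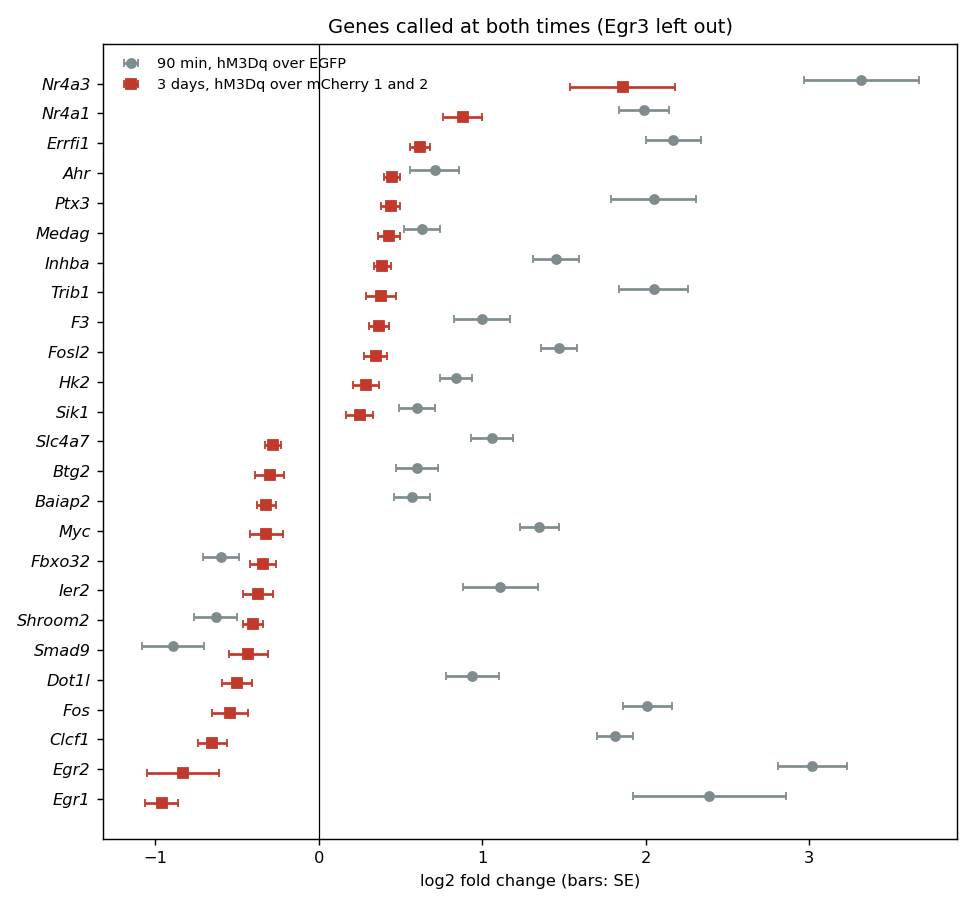
Log2 fold change ± SE at 90 min (hM3Dq over EGFP, grey circles) and at 3 days (hM3Dq over mCherry 1 and 2, red squares) for 25 of the 26 genes called at both times, Egr3 being left out because its hM3Dq libraries are at 0. All 3-day values lie nearer to 0 than 2, and 10 of the genes shown have the opposite sign at the earlier time.

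Calls in the receptor's own pathway were near the background. Chrm3, the mouse gene of the receptor from which hM3Dq derives, lay at 10.4 to 12 CPM in hM3Dq cells and 8.93 to 9.59 CPM in mCherry cells, with a log2 fold change of 0.24 ± 0.12 (adjusted p = 0.224 without mCherry 3). The transfected receptor's sequence may be counted to this gene in part at most, so the value does not check the labels. Of 35 genes of Gq and calcium signalling, 2 rose (5.7%) and 1 fell (2.9%), against 4.15% and 5.58% of all genes tested, and none rose without mCherry 1. Rgs3, which speeds up the shut-off of Gq and Gi proteins, rose by 0.47 ± 0.11 on the log2 scale (adjusted p = 0.0163), and Arrb1, beta-arrestin 1, which uncouples receptors, fell by 0.28 ± 0.07 (adjusted p = 0.0183). Gnaq, the Gq alpha subunit, had 152 to 157 CPM in hM3Dq cells and 172 to 228 CPM in mCherry cells and was not called (adjusted p = 0.0652). Itpr2, the main calcium release channel of astrocytes, had 50.6 to 58.3 CPM in hM3Dq cells and 51.1 to 53.9 CPM in mCherry cells. Slc8a1, the sodium-calcium exchanger, rose, with 31.9, 29.8 and 33.9 CPM in hM3Dq cells against 23.1, 23.2 and 31.8 CPM in mCherry cells, where mCherry 3 lay within the hM3Dq range. Its log2 fold change was 0.47 ± 0.08 without mCherry 3 (adjusted p = 0.00284).

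Called genes of ERK kinase feedback, a list of inhibitors and induced factors, lay in both directions. Of 19 tested, 2 rose (10.5%), 3 fell (15.8%) and 14 were not called. Of all genes tested 4.15% rose and 5.58% fell. Errfi1, an inhibitor of the EGF receptor, had 91.9, 92.4 and 94.0 CPM in hM3Dq cells, against 57.5, 63.6 and 71.6 CPM in mCherry cells. The groups were apart, with a log2 fold change of 0.62 ± 0.06 without mCherry 3 (adjusted p = 5.48e-05) and 0.53 ± 0.10 with it (adjusted p = 0.214). Spry4, an ERK pathway inhibitor, rose by 0.39 ± 0.09 (adjusted p = 0.0152). Dusp6, a phosphatase that inactivates ERK, had 59.5, 63.9 and 59.0 CPM in hM3Dq cells, against 72.9, 80.5 and 81.7 CPM in mCherry cells, a log2 fold change of -0.33 ± 0.06 (adjusted p = 0.00495). Etv4, an ETS factor induced by ERK, fell by 0.74 ± 0.16 (adjusted p = 0.0105), with mCherry 3 near the hM3Dq libraries. Of 24 genes of cAMP and CREB signalling, 5 rose (20.8%) and 2 fell (8.3%). Fewer rose without mCherry 1 or mCherry 2, and 3 rose without hM3Dq 3. Those that rose include the phosphodiesterase Pde4b, with 0.49 ± 0.08 (adjusted p = 0.00195) although mCherry 3 overlapped the hM3Dq range. Of 14 calcineurin and NFAT genes none rose and 2 fell (14.3%), Nfatc4 and Cabin1. For Nfatc4 mCherry 3 lay below all hM3Dq libraries, and for Cabin1 it lay among them. Both calls were lost without mCherry 1. Without mCherry 1 as well, Spry4, Etv4, Rgs3 and Arrb1 were not called (adjusted p 0.0796 to 0.151), nor were Rgs3 and Arrb1 without mCherry 2 (0.0545 to 0.0843) or Arrb1 without hM3Dq 1 (0.0841).

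Complement genes rose together. Of 12 tested, 9 rose and none fell, all 12 had a positive log2 fold change, and the list median was 0.37 against 0.01 over all genes. All 9 were apart in the 6 libraries, and the offset for GC content and length over all 6 called 6 of them. The count was 4 without mCherry 1 and 5 without mCherry 2. C4b, the complement component cleaved in the classical and lectin pathways, had 1300, 1290 and 1480 CPM in hM3Dq cells, against 1100, 1010 and 961 CPM in mCherry cells. C4b had a log2 fold change of 0.37 ± 0.07 without mCherry 3 (adjusted p = 0.00481) and 0.41 ± 0.10 with it (adjusted p = 0.235). Masp1, a lectin-pathway protease, rose by 0.35 ± 0.07 (adjusted p = 0.00488), and the C1r-like protease C1rl by 0.44 ± 0.08 (adjusted p = 0.0049). Serping1, the inhibitor of the C1 proteases, had 7.22, 8.57 and 10.4 CPM in hM3Dq cells, against 4.45, 5.16 and 5.44 CPM in mCherry cells, and rose by 0.87 ± 0.17 (adjusted p = 0.00584). The proteases C1ra and C1s1 each rose by 0.26 ± 0.06 (adjusted p = 0.0121 and 0.0131). C4b, C1ra and C1s1 have near-identical neighbouring copies, so their counts are uncertain. Clu, clusterin, which restrains the terminal complex, rose by 0.36 ± 0.06 (adjusted p = 0.00238). C3 lay at 151, 146 and 209 CPM in hM3Dq cells, against 107, 98.0 and 102 CPM in mCherry cells, apart but not called (log2 fold change 0.72 ± 0.20, adjusted p = 0.124). C4bp, an inhibitor of C4b that was not on the list, rose by 0.58 ± 0.07 (adjusted p = 0.0007), while Cfp, properdin, which stabilises the alternative-pathway convertase and was likewise not on it, fell to 1.18, 1.58 and 1.08 CPM in hM3Dq cells, against 3.37, 3.24 and 2.47 CPM in mCherry cells (log2 fold change -1.37 ± 0.25, adjusted p = 0.00363). The complement genes C1qa, C1qb and C1qc, made by microglia, were at 0 in all 6 libraries, as were the microglial markers Cx3cr1, P2ry12, Itgam, Trem2 and Tyrobp. The summed level of the 17 microglia and macrophage markers was 306 to 316 CPM in hM3Dq cells and 295 to 328 CPM in mCherry cells. Of these genes C1ra, C1s1, Masp1 and Serping1 lost their call without mCherry 1 (adjusted p 0.0716 to 0.117), and C1ra and C1s1 without mCherry 2 (0.0516 to 0.0684).

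Of 26 inflammatory and NF-kB genes, 5 rose (19.2%), none fell and 21 were not called (median 0.19). Of 37 interferon-stimulated genes, 4 rose (10.8%), none fell and 33 were not called (median 0.02). Of all genes tested 4.15% rose and 5.58% fell. Cxcl12, a chemokine, had 45.7, 47.4 and 49.2 CPM in hM3Dq cells, against 32.7, 34.4 and 33.2 CPM in mCherry cells, with a log2 fold change of 0.50 ± 0.07 without mCherry 3 (adjusted p = 0.0007). Steap4, an iron and copper reductase induced by cytokines, had 66.3, 68.8 and 83.6 CPM in hM3Dq cells, against 41.6, 41.0 and 50.3 CPM in mCherry cells, with 0.82 ± 0.09 (adjusted p = 0.000429). Both genes were apart in all 6 libraries and kept their call whichever further library was left out. Lcn2, lipocalin 2, rose by 1.38 ± 0.38 at the low level of 1.38 to 2.46 CPM in hM3Dq cells and 0.482 to 1.02 CPM in mCherry cells (adjusted p = 0.0309). Lbp, the lipopolysaccharide-binding protein, rose by 0.71 ± 0.12 (adjusted p = 0.00624). Zbp1, an interferon-induced nucleic acid sensor, rose by 0.41 ± 0.07 (adjusted p = 0.0036). None of 18 antigen presentation genes was called by edgeR. Without mCherry 1, Lcn2 and Lbp lost their calls (adjusted p 0.104 to 0.341), as did Lcn2 without hM3Dq 2 (0.103) and Lbp without mCherry 2 (0.0607). Inflammatory genes that rose numbered 3 without mCherry 1. Interferon-stimulated genes that rose numbered 1 without mCherry 1, mCherry 2 or hM3Dq 1, and 2 without hM3Dq 2.

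Genes of the reactive astrocyte state rose more often than they fell. Of 35 tested, 11 rose and 1 fell, with a median of 0.23, and 27 had a positive fold change. The count that rose was 6 without mCherry 1 and 9 to 12 without any other library. Osmr, the oncostatin M receptor, had 63.0, 63.4 and 75 CPM in hM3Dq cells, against 42.1, 41.3 and 58.0 CPM in mCherry cells. Its log2 fold change was 0.69 ± 0.08 without mCherry 3 (adjusted p = 0.000235) and 0.51 ± 0.15 with it (adjusted p = 0.289). Stat3, the transcription factor downstream of such receptors, had 223, 207 and 248 CPM in hM3Dq cells, against 171, 168 and 180 CPM in mCherry cells, with 0.42 ± 0.07 (adjusted p = 0.00174). S1pr3, a receptor for sphingosine 1-phosphate that couples to Gq, had 52.1, 50.7 and 58.9 CPM in hM3Dq cells, against 37.4, 37.2 and 40 CPM in mCherry cells, with 0.53 ± 0.07 (adjusted p = 0.00078). These 3 genes kept their call without any 1 further library. The member that fell was Clcf1. Gfap, the intermediate filament that defines reactive astrocytes, was at a low level, 3.84, 2.76 and 3.2 CPM in hM3Dq cells against 2.62, 1.8 and 1.68 CPM in mCherry cells, and was not called (log2 fold change 0.56 ± 0.24, adjusted p = 0.154).

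Homeostatic astrocyte genes gave 5 that rose (17.2%) and 1 that fell (3.4%) of 29, with a median of 0.02. Of all genes tested 4.15% rose and 5.58% fell. Aldoc, an astrocyte aldolase, rose by 0.27 ± 0.06 (adjusted p = 0.0074), and the glutamate transporter Slc1a3 by 0.25 ± 0.06 (adjusted p = 0.0222). Aqp4, the water channel of astrocyte endfeet, had 25.8, 22.5 and 25.7 CPM in hM3Dq cells and 16.9, 18 and 25.8 CPM in mCherry cells, where mCherry 3 was as high as the hM3Dq libraries. Its log2 fold change was 0.50 ± 0.09 without mCherry 3 (adjusted p = 0.0036). The 10 astrocyte markers summed to 826 to 862 CPM in hM3Dq cells and 726 to 780 CPM in mCherry cells, and none was at 0. Of these markers 3 rose (Aldoc, Aqp4 and Slc1a3), none fell, 9 had a positive fold change, and none rose without mCherry 1. Fibroblast and mural markers, present in both groups, summed to 4170 to 4620 CPM in hM3Dq cells and 4180 to 4230 CPM in mCherry cells, with 1 of 15 tested higher and 1 lower. The part of either marker list in the astrocyte results was not tested. Aldoc, Aqp4 and Slc1a3 lost their call without mCherry 1 (adjusted p 0.0603 to 0.158), and Slc1a3 also without mCherry 2 (0.0679) and without hM3Dq 1 (0.0722). Homeostatic genes that rose numbered 1 without mCherry 1.

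Called secreted factors lay in both directions. Of 32 growth and neurotrophic factors, 3 rose and 3 fell (9.4% each), where 4.15% of all genes tested rose and 5.58% fell. Cntf, ciliary neurotrophic factor, had 56.4, 59.1 and 52.3 CPM in hM3Dq cells, against 37.4, 36.0 and 26.9 CPM in mCherry cells. Its log2 fold change was 0.61 ± 0.07 without mCherry 3 (adjusted p = 0.000247) and 0.74 ± 0.14 with it (adjusted p = 0.214), in the direction opposite to that of Clcf1, which acts through the same receptor complex. Inhba, the activin A subunit, had 154, 147 and 160 CPM in hM3Dq cells, against 117, 119 and 142 CPM in mCherry cells, with 0.39 ± 0.05 (adjusted p = 0.000843). Of 23 Wnt pathway genes, 5 rose (21.7%) and 1 fell (4.3%), the median being -0.03. The Wnt inhibitor Sfrp1 had 621, 643 and 790 CPM in hM3Dq cells, against 439, 436 and 488 CPM in mCherry cells, with 0.65 ± 0.09 (adjusted p = 0.00185). The ligands Wnt5b and Wnt5a rose by 0.51 ± 0.08 (adjusted p = 0.0013) and 0.33 ± 0.06 (adjusted p = 0.00252). Of 20 IGF pathway genes, 5 rose and 2 fell. Igfbp3, an IGF-binding protein, was among the most clearly lower genes, with 264, 235 and 198 CPM in hM3Dq cells against 427, 429 and 413 CPM in mCherry cells, a log2 fold change of -0.88 ± 0.10 (adjusted p = 0.00232 without mCherry 3, 0.199 with it). Other binding proteins moved the opposite way, Igfbp4 by 0.65 ± 0.13 (adjusted p = 0.0321) and Igfbp5 by 0.32 ± 0.07 (adjusted p = 0.0105). Igfbp3 and Igfbp4 lost their call without mCherry 1 (adjusted p 0.0694 to 0.357), and Igfbp4 and Igfbp5 without mCherry 2 (0.0728 to 0.205). The Wnt and IGF genes that rose numbered 3 each without mCherry 1, and the Wnt genes also without mCherry 2. No IGF gene fell without mCherry 1.

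Matrix genes rose more often than they fell, 9 against 3 of 50, with a median of 0.07. Lox, the enzyme that cross-links collagen and elastin, had 726, 757 and 835 CPM in hM3Dq cells, against 433, 465 and 678 CPM in mCherry cells. The groups were apart, although mCherry 3 lay closer to the hM3Dq libraries, and the log2 fold change was 0.79 ± 0.07 without mCherry 3 (adjusted p = 2.14e-05) and 0.56 ± 0.17 with it (adjusted p = 0.3). Fbln5, an elastic fibre protein, had 244, 245 and 265 CPM in hM3Dq cells, against 189, 197 and 214 CPM in mCherry cells, with 0.38 ± 0.06 (adjusted p = 0.0011). Thbs2, a thrombospondin that promotes synapse formation, rose by 0.38 ± 0.07 (adjusted p = 0.00316). The small proteoglycan Dcn, decorin, fell by 0.31 ± 0.07 (adjusted p = 0.00894) and was not called without mCherry 2 (adjusted p = 0.0584). The collagens Col15a1 and Col5a3 fell, with -0.47 ± 0.11 (adjusted p = 0.0179) and -0.55 ± 0.15 (adjusted p = 0.0338). For both, mCherry 3 lay within the hM3Dq range, and neither was called without mCherry 1 or mCherry 2. Bcan, brevican, a proteoglycan of perineuronal nets, was not on the matrix list and fell, with -1.20 ± 0.17 (adjusted p = 0.00107). It had 2.56, 2.52 and 2.55 CPM in hM3Dq cells, against 6.05, 5.64 and 3.48 CPM in mCherry cells. The proteases Adamts4 and Adamts9, which cleave such proteoglycans, rose by 0.78 ± 0.14 (adjusted p = 0.00396) and 0.36 ± 0.06 (adjusted p = 0.00195). Of 32 integrin and focal adhesion genes 1 was called. Matrix genes that rose numbered 4 without mCherry 1 and 6 without mCherry 2, and 1 fell without mCherry 1. With the offset for GC content and length on the same 5 libraries, 18 rose and 2 fell.

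Genes of energy metabolism rose in part. Of 31 glycolysis, glycogen and lactate genes, 10 rose and 2 fell, with a median of 0.13, and 0 rose without mCherry 1. Tpi1, a glycolytic isomerase, had 502, 517 and 513 CPM in hM3Dq cells, against 403, 428 and 275 CPM in mCherry cells, with 0.30 ± 0.06 (adjusted p = 0.00445). Pgk1, Pgam1 and Ldha rose by 0.26 to 0.30. Of 21 hypoxia-response genes, 9 rose and 4 fell, and 5 rose without mCherry 1 and 6 without hM3Dq 1 or hM3Dq 2. None of them fell without mCherry 1, 1 fell without mCherry 2 or hM3Dq 2 and 2 fell without hM3Dq 1. Stc1, stanniocalcin, a secreted regulator of calcium and mitochondria, had 721, 723 and 768 CPM in hM3Dq cells, against 492, 476 and 609 CPM in mCherry cells, and Plin2, a lipid droplet protein, had 174, 173 and 178 CPM in hM3Dq cells, against 120, 134 and 105 CPM in mCherry cells. Stc1 had a log2 fold change of 0.61 ± 0.06 (adjusted p = 5.48e-05) and Plin2 of 0.47 ± 0.06 (adjusted p = 0.000341), and neither lost its call when a further library was left out. Hif1a, the hypoxia-inducible factor, rose by 0.21 ± 0.05 (adjusted p = 0.0211), but mCherry 3, with 398 CPM, lay above all hM3Dq libraries. Of 26 cholesterol synthesis genes, 2 rose (7.7%) and 6 fell (23.1%), against 4.15% and 5.58% of all genes tested, with a median of -0.08. The number that fell was 0 without mCherry 1, 1 without mCherry 2 or hM3Dq 2, 2 without hM3Dq 1 and 8 without hM3Dq 3. Nuclear oxidative phosphorylation genes (59) and cytosolic ribosomal protein genes (77) showed where mCherry 3 matters most. Their list medians were 0.15 and 0.12 without mCherry 3, 0.41 and 0.41 with all 6 libraries, and 0.15 and 0.17 with all 6 and the offset. Of these, 5 oxidative phosphorylation genes rose and 2 ribosomal genes fell, but without hM3Dq 3 the test called 26 and 38 of them higher. With the replicate number as a block and mCherry 3 left out, it called 29 and 59 of them higher. The calls of these 2 lists thus depend on the model. Ribosomal protein genes have many near-identical pseudogenes, so their counts are uncertain. Of the genes named here Tpi1, Pgk1, Pgam1, Ldha and Hif1a were not called without mCherry 1 (adjusted p 0.0957 to 0.236), nor was Hif1a without mCherry 2 (0.056), hM3Dq 1 (0.0859) or hM3Dq 2 (0.0528).

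Of 57 splicing factors, SR proteins and hnRNPs, 18 fell, none rose and 39 were not called. The list median was -0.11, 10 members had a positive fold change, and 17 of the 18 were apart in the 6 libraries. The offset over all 6 called 7 of the list lower. Hnrnpdl, an hnRNP protein, had 149, 150 and 145 CPM in hM3Dq cells, against 195, 203 and 224 CPM in mCherry cells, with -0.43 ± 0.05 (adjusted p = 0.000341). Son, a nuclear speckle scaffold, had 469, 445 and 467 CPM in hM3Dq cells, against 606, 548 and 742 CPM in mCherry cells, with -0.32 ± 0.06 (adjusted p = 0.00441). The splicing kinases Clk4 and Clk1 fell by 0.38 ± 0.07 (adjusted p = 0.00288) and 0.40 ± 0.10 (adjusted p = 0.041). The number that fell was 4 without mCherry 1, and Son, Clk1 and Clk4 were then not called (adjusted p 0.0694 to 0.288). Hnrnpdl kept its call without any 1 further library. RNAs that stay in the nucleus or lack a poly-A tail, a sign of RNA selection and quality, summed to 624 to 674 CPM in hM3Dq cells and 393 to 638 CPM in mCherry cells, the lowest being mCherry 3. Their part in the splicing result was not tested.

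Of 31 genes of the unfolded protein and integrated stress responses, 9 rose, 2 fell and 20 were not called, with a median of 0.14. The 2 lower calls were lost without mCherry 1, mCherry 2 or hM3Dq 1. Calr, calreticulin, had 1560, 1640 and 1690 CPM in hM3Dq cells, against 1180, 1310 and 1130 CPM in mCherry cells, with 0.39 ± 0.07 (adjusted p = 0.00242). Creld2, a disulfide isomerase, had 48.8, 48.9 and 50.9 CPM in hM3Dq cells, against 38.8, 37.0 and 30.0 CPM in mCherry cells, with 0.39 ± 0.07 (adjusted p = 0.00238). Hspa5, the chaperone BiP, rose by 0.23 ± 0.06 (adjusted p = 0.0214). Creld2 was the 1 gene of the 9 still called without mCherry 1, and Calr and Hspa5 were then not called (adjusted p 0.0695 to 0.279). The number that rose was 5 without hM3Dq 1 or hM3Dq 2, and Hspa5 was not called then (adjusted p = 0.109 and 0.061).

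The largest changes were in genes at low levels. Slc6a2, the noradrenaline transporter, had 8.86, 6.16 and 9.49 CPM in hM3Dq cells, against 3.96, 3.24 and 4.32 CPM in mCherry cells, with 1.18 ± 0.20 (adjusted p = 0.00237). Ackr3, a scavenging receptor for Cxcl12, had 13.7, 14.6 and 19.6 CPM in hM3Dq cells, against 7.39, 6.84 and 11 CPM in mCherry cells, with 1.16 ± 0.15 (adjusted p = 0.000889). Both stayed apart in every library. Ccn5, a secreted matricellular protein, rose by 1.07 ± 0.19 (adjusted p = 0.00389) and Slc14a1, a urea transporter, by 0.84 ± 0.18 (adjusted p = 0.00863). Among genes that fell, Cacnb4, a subunit of voltage-gated calcium channels, had 19.6, 27.1 and 22.6 CPM in hM3Dq cells, against 41.7, 41.9 and 50.5 CPM in mCherry cells. For Cacnb4 the log2 fold change was -0.86 ± 0.10 without mCherry 3 (adjusted p = 0.0007) and -0.95 ± 0.14 with it (adjusted p = 0.199). Igflr1, a TNF-receptor-like protein, had 3.23, 2.93 and 2.6 CPM in hM3Dq cells, against 7.5, 6.72 and 6.17 CPM in mCherry cells, with -1.28 ± 0.17 (adjusted p = 0.000653). Rtel1, a helicase that protects telomeres, had 17.2, 17.6 and 18.1 CPM in hM3Dq cells, against 26.3, 27.6 and 28.6 CPM in mCherry cells, with -0.61 ± 0.08 (adjusted p = 0.000626). Amy1, an amylase with near-identical copies and so uncertain, had 3.43, 3.46 and 2.93 CPM in hM3Dq cells, against 7.66, 7.44 and 6.67 CPM in mCherry cells, with -1.20 ± 0.16 (adjusted p = 0.000682). The non-coding Snhg11 and Gm20605 fell by 0.82 ± 0.10 (adjusted p = 0.000429) and 1.27 ± 0.11 (adjusted p = 2.14e-05). With Egr3, Nr4a3, Igfbp3 and Sectm1a, a secreted immune-related protein that rose by 0.97 ± 0.17 (adjusted p = 0.00287), the genes Igflr1, Amy1, Cacnb4, Rtel1, Snhg11 and Gm20605 had the 10 smallest p-values with all 6 libraries, where 9 of them shared an adjusted p of 0.199. In this group Slc14a1 was not called without mCherry 2 (adjusted p = 0.0626) and Igfbp3 was not called without mCherry 1 (adjusted p = 0.0694).

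The gene groups given here were mostly near or below the shares over all genes, 4.15% higher and 5.58% lower. Response lists not described in the text had larger shares higher, lower or both. Of glucocorticoid-responsive genes 23.5% rose and 11.8% fell, and of cell cycle inhibitors and senescence genes 11.5% rose and 15.4% fell. Of TGF-beta, BMP and Notch targets 7.4% rose and 14.8% fell. Genes that rose in the glucocorticoid list numbered 4, and 1 without mCherry 1. Of 41 cell cycle genes none was called by edgeR, with a median of -0.12 and 7 positive fold changes, and 2 were called lower without mCherry 1. None of 28 NRF2 and antioxidant genes was called by edgeR, although 3 were called higher without hM3Dq 3. On the same 5 libraries DESeq2 called 2 of them higher and 1 lower, and edgeR with the offset 1 higher and 3 lower. Of 39 lysosome and autophagy genes 1 rose and 1 fell, and of 24 neurotransmitter and purine receptors 2 rose (8.3%), both sphingosine 1-phosphate receptors, and 1 fell (4.2%). Of these receptors S1pr1 (adjusted p = 0.0443) was not called with DESeq2, without mCherry 1 or without any 1 of the hM3Dq libraries. Neuron markers summed to 153 to 157 CPM in hM3Dq cells and 165 to 193 CPM in mCherry cells, with 5 of 17 at 0, among them Rbfox3 and Gad1. Oligodendrocyte lineage markers summed to 145 to 152 CPM in hM3Dq cells and 130 to 133 CPM in mCherry cells, with Olig1, Olig2 and Sox10 at 0 in all 6 libraries. Endothelial markers summed to 76.7 to 78.5 CPM in hM3Dq cells and 74.0 to 81.3 CPM in mCherry cells, with Cdh5 and Cldn5 at 0. Few of these markers passed the filter and were tested, 3 of neurons, 6 of oligodendrocytes, 2 of microglia, 6 endothelial and 4 ependymal. None of those tested was called. Without hM3Dq 3, however, 1 neuron marker was called lower and 1 oligodendrocyte marker higher.

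**Figure D5:**
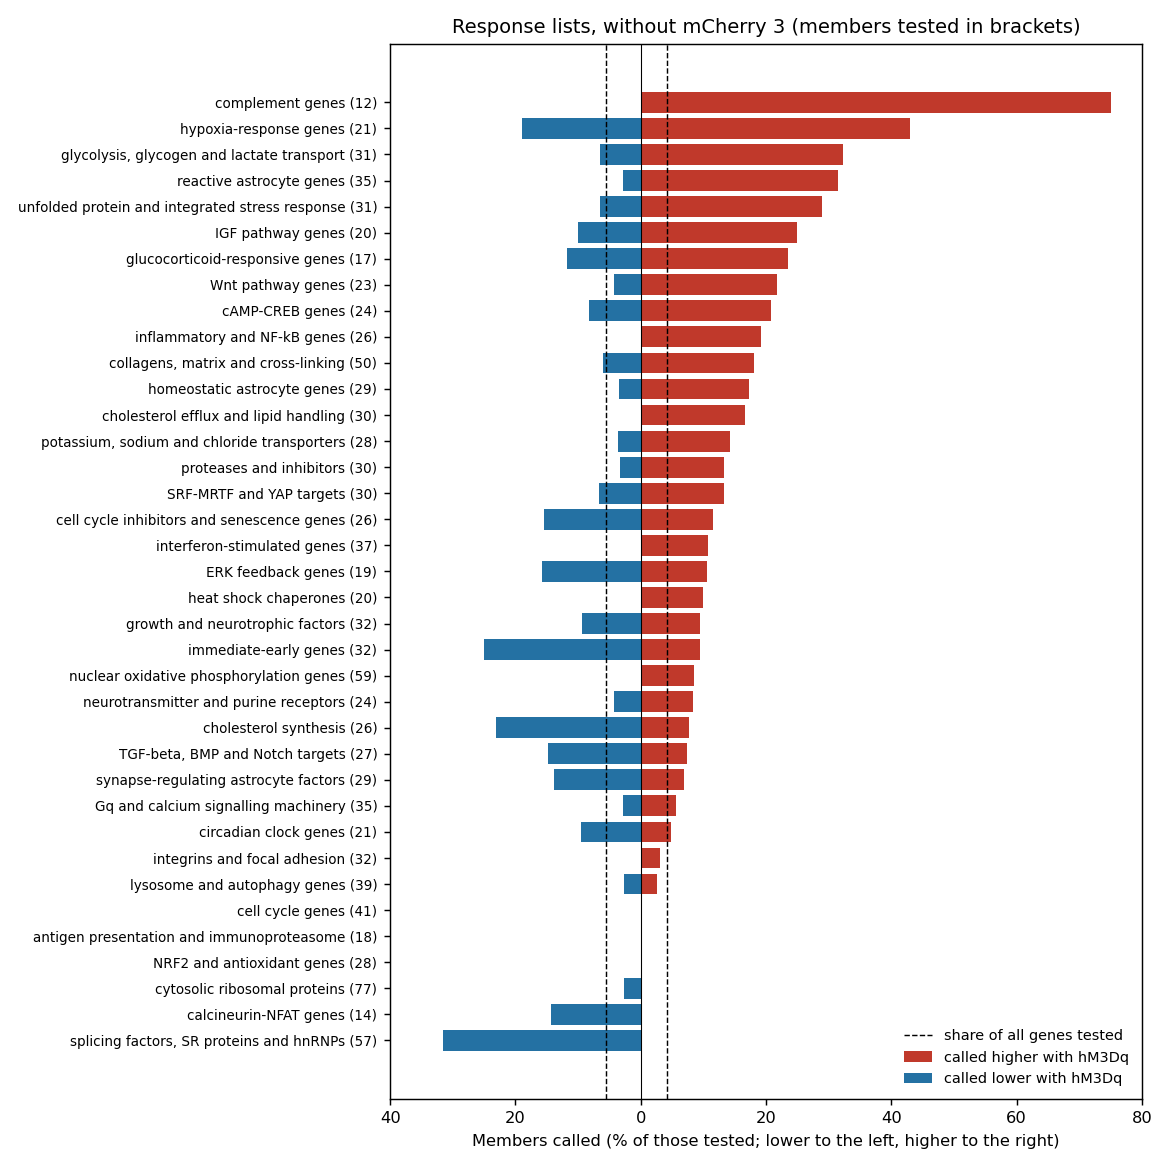
Share of tested members called higher (right, red) and lower (left, blue) with hM3Dq without mCherry 3 for 37 gene lists, with the share among all genes tested (4.15% higher, 5.58% lower) as dashed lines. Complement genes reach the highest share (9 of 12 higher) and splicing genes the highest share lower (18 of 57).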

How the data were processed

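Polyadenylated RNA of 18 libraries was sequenced, 3 in each of 6 groups, and the 6 libraries of 3 days were compared. The deposited values are estimated counts per Entrez gene identifier, not normalised, and 30.5% of the 3-day values were not whole numbers (40.2% in mCherry 3, 27.0 to 29.5% in the others). Per the submitters' processing notes, Salmon 1.8.0, fastp 0.23.4 and mm39 were used, in roles the notes do not state. Whether counting used strand is not given in the sources used here, so antisense and overlapping genes are uncertain. Symbols came from a reference gene table that matched 21978 of 22078 identifiers, leaving 0.034% of the counts without a symbol. No gene coordinates of mm39 are given because the annotation at hand is of GRCm38. GC content and transcript length came from its longest transcript per gene (20881 identifiers).

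Counts were rounded and tested with edgeR 4.0.16 (R 4.3.3), with TMM scaling, edgeR's default filter on low counts, robust quasi-likelihood dispersion and Benjamini-Hochberg adjustment over all genes tested. The residual degrees of freedom were 4 with all 6 libraries and 3 without mCherry 3. The effect at 3 days minus that at 90 min was an interaction contrast over 12 libraries. CPM values are TMM-scaled. A floor of 3 counts covers counting error only. The alternatives were DESeq2 1.42.0, limma 3.58.1 voom with quality weights, other scaling and filters, an offset for GC content and length, the replicate number as a block, and each library left out. The tests were tried on simulated counts. Replicate numbers were not used to pair libraries, since the labels state no pairing. Deviations from the group mean correlated at 0.05, 0.11 and 0.14 between libraries sharing a number, and at -0.14 to 0.05 between others. The mCherry mean included mCherry 3, so these correlations cannot decide whether a number marks a pair.

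The labels do not say that replicates are separate cultures, so the spread behind each p-value is between libraries and may be technical in part. The members and the 46 gene lists (37 of responses, 9 of markers) were chosen with earlier results of these data known, and lists share genes. Named genes were Chrm3, Gfap, Fos, Egr1 and Nr4a1, and the 10 with the smallest p with all 6 libraries. All others were chosen after their values were seen, mostly as the highest, the lowest or the smallest p of their list. Some results on single genes are not reported here.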

Additional observations from a re-analysis of the deposited data

Results flagged for a closer look

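The hM3Dq effect differed between 3 days and 90 min in 53 genes by the interaction test. For some of the genes named in the text, the log2 difference of the effect, 3 days minus 90 min, was -3.92 for Egr2, -2.47 for Fos, -2.43 for Clcf1, -1.64 for Errfi1, -1.16 for Inhba, 0.64 for Nuak1 and 0.90 for Rhobtb2. Other named genes were also among the 53, such as Arc with -4.25, Ptgs2 with -4.02 and Fosb with -3.23. Egr3 had the lowest value, -12.47, which rests on 0 counts in the 3-day hM3Dq libraries. The 2 times have different control plasmids, EGFP at 90 min and mCherry at 3 days.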

How the results depend on the processing

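With all 6 libraries, where edgeR called 0 genes, the count was 156 with DESeq2, 1316 with limma-voom quality weights, 396 with the offset for GC content and length, 206 with the replicate block and that offset, 1 without a filter on low counts and 5 when all 18 libraries shared the estimate of the spread. It was 0 with RLE scaling, with a minimum of 1 CPM and with the replicate block alone. Leaving out single libraries gave 0 to 1257 calls, 1257 without mCherry 3, 1 without hM3Dq 2 and 0 without any other. Of the 1257 genes, 152 were among the 156 of DESeq2 and 1106 among the 1316 of limma-voom.

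Without mCherry 3 the count of 1257 was 853 with DESeq2, 1276 with RLE scaling, 1390 with limma-voom, 1672 without a filter, 1281 with a minimum of 1 CPM, 1531 with the offset, 1600 with the replicate block and 1909 with block and offset. The share of higher genes was 42.6% in the reported fit and 53.4% with block and offset. Leaving out single libraries gave 250 to 1587. Of 136 genes followed singly and called in this fit, 56 kept the call under all alternatives that gave an adjusted p, and 71 lost it without mCherry 1. The labels do not say whether a shared replicate number marks a shared culture. The block moved both counts as given.

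The difference between times gave 53 genes, 202 with DESeq2, 758 with limma-voom, 177 with the offset, 92 with the replicate block and the offset, 39 with the block alone and 28 to 170 with single libraries left out. Leaving out both mCherry 3 and EGFP 1, which was added once the data had been seen, gave 501. The cause of these shifts was not tested. No named gene's fold change turned its sign in a fit where it was called. Depth limits genes of a few CPM, such as Nr4a3 and Egr3.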
